A study of Mus musculus with 12 samples.

Results

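The 10 genes described here encode precursors of neuropeptides other than the opioids and corticotropin-releasing hormone, namely Sst, Npy, Vip, Cck, Cort, Tac2, Nts, Trh, Cartpt and Adcyap1. They were taken from the count table by gene symbol. All 10 were found among its 33024 rows, and all 10 were among the 16059 genes that passed the expression filter. The RNA came from the cortex of 12 wildtype C57BL/6 mice, 7 water-drinking controls and 5 ethanol-administered mice, each library being taken as 1 mouse. Starting at the age of 30 days, the ethanol-administered mice had a bottle of water and a bottle of 20% (v/v) ethanol during 35 night sessions of 12 h each, a binge-like drinking model called 2BC-DID, whereas both bottles of the controls held water. Both groups then had 14 days without ethanol and underwent behavioural tests before frozen cortex was collected after saline perfusion. The sex of the mice is not given in the sources used here. In such bulk tissue, fewer cells of a type and less RNA per cell cannot be told apart.

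Neuropeptides are made as longer precursors, cut and amidated inside dense core vesicles, and released to act on G protein-coupled receptors over longer times and distances than fast transmitters. In the cortex, somatostatin (Sst), neuropeptide Y (Npy), vasoactive intestinal peptide (Vip), cortistatin (Cort) and neurokinin B (Tac2) are known from subsets of GABAergic interneurons, while cholecystokinin (Cck) is made by both interneurons and pyramidal neurons. The PACAP precursor Adcyap1 is known mainly from excitatory neurons, and neurotensin (Nts), thyrotropin-releasing hormone (Trh) and CART (Cartpt) are also abundant in regions beneath or beside the cortex.

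The libraries held between 31768076 and 42183029 counts. Levels are given as CPM, that is counts relative to each library's total after TMM scaling in edgeR, and the floor of detection, 3 counts, lay between 0.0695 and 0.0962 CPM. The cortical label was checked against 12 tested markers of cortical excitatory neurons, of which 2 were called lower and 1 higher, with Slc17a7, the vesicular glutamate transporter of cortical pyramidal neurons, at 1955 ± 144 in the controls (CPM, SD, n = 7) and 1906 ± 223 after ethanol (n = 5). Slc17a7 had the highest p of these markers, and 7 of the 12 had an adjusted p under 0.05. Of these, Fezf2 (log2 fold change 0.60), Neurod2 (0.36), Cux2 (0.31) and Neurod6 (0.26) were higher, and Foxp2 (-1.21), Nxph4 (-0.75) and Tbr1 (-0.40) were lower. Markers of regions next to the cortex differed widely between the groups. All 15 striatum markers were called lower (median log2 fold change -2.63) and 10 of 13 hippocampus markers were called higher (median 2.14). The mean log2 CPM of the striatum list lay between 5.31 and 6.46 in the controls and between 3.09 and 3.56 in the ethanol-administered mice, and that of the hippocampus list between 1.83 and 2.20 and between 3.43 and 4.35. Group accounted for 95.4% of the variance of the striatum score, so the part of either in the differences of the neuropeptide genes cannot be told apart. The lists of markers were written with earlier results of these data known.

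The sequence before the transcript start is shown for the 3 genes that were called lower and for Sst, because Sst and Cartpt alone among the 10 hold the full cAMP response element (CRE), TGACGTCA, through which the factor CREB is known to drive neuropeptide genes. The windows come from RefSeq, were placed on GRCm39 by exact match, run 5′ to 3′ towards the transcript start, and end at the base before it. Capitals mark the CRE, or its shorter site TGACG, read on both strands.
Sst (chr16:23709595-23709744, - strand): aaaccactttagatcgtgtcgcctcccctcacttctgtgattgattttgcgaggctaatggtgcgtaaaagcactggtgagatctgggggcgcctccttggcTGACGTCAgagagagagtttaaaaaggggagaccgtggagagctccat
Npy (chr6:49799540-49799689, + strand): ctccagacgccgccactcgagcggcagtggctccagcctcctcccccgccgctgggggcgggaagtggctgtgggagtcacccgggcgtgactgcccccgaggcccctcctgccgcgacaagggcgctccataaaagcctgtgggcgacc
Cartpt (chr13:100037192-100037341, - strand): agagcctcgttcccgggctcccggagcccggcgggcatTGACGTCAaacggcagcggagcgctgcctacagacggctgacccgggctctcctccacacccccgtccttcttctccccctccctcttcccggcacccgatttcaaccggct
Adcyap1 (chr17:93506295-93506444, + strand): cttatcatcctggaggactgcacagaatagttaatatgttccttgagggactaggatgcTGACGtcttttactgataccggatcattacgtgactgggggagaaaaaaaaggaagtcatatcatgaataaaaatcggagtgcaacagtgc
A second RefSeq window of Adcyap1, whose start lies downstream, is not printed; it holds the shorter site from 242 bases before that start and the letters TATAAA from 58. The full element began 48 bases before the start in Sst and 112 bases before it in Cartpt. Over the 250 bases before each start, it was found in 2 of the 10 genes, against 1.55% of the 32851 windows in the table. The shorter site, which each full element also holds, was found in 8 of the 10 genes, against 17.8% of all windows. Vip, Cck, Cort, Nts, Trh and Adcyap1 had it without the full element, and Npy and Tac2 had neither in this window. Of the 3 genes called lower, 1 held the full element, 1 the shorter site and 1 neither. A match of letters is a description and does not show that a factor binds.

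To ask which neuropeptide genes differed after drinking and abstinence, both groups entered a quasi-likelihood test in edgeR over all genes. A gene was called where its Benjamini-Hochberg adjusted p was under 0.05 and its log2 fold change (ethanol minus control) exceeded 0.5 in either direction. Cartpt, Adcyap1 and Npy fell in the ethanol-administered mice. None of the 10 was called higher by edgeR, and 0 had an unadjusted p under 0.05 in that direction; DESeq2 and limma voom also called 0. Over all genes tested, 4.09% were called lower and 4.2% higher, 8.29% in either direction. The median log2 fold change of the 10 genes was -0.31, against 0.0001 over all genes, and 9 of the 10 values were negative. Without a minimum fold change, Cck joined the 3 genes, where 11.6% of all genes were lower. The values of Npy, Cck, Cartpt and Adcyap1 did not overlap between the groups, which held for 4.96% of all genes in this direction and 4.84% in the other. The number called lower was 3 or 4 with any one mouse left out.

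**Figure D1:**
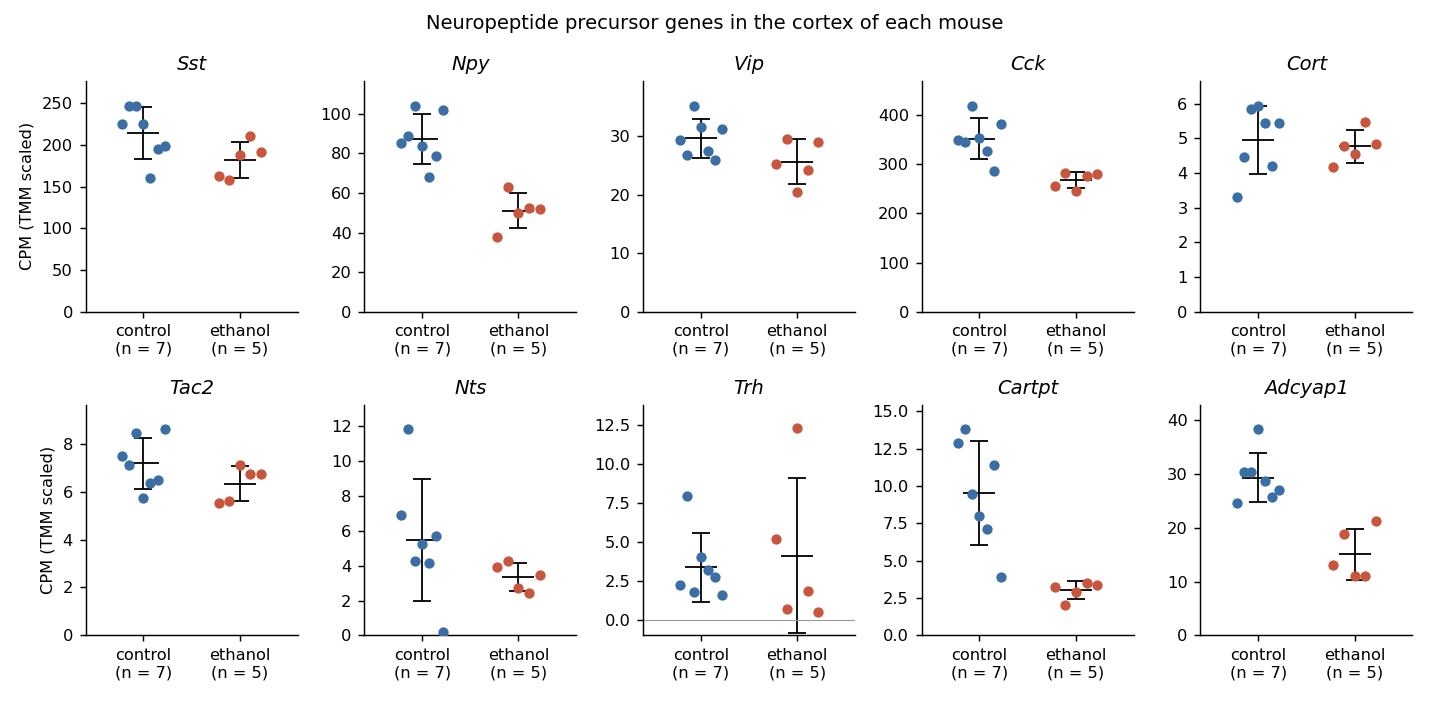
CPM of each neuropeptide gene (y axis, own scale for each gene) in 7 control and 5 ethanol-administered mice, where each point is a mouse and the bars are mean ± SD. Npy, Cck, Cartpt and Adcyap1 show no overlap between the groups, and 1 control mouse lies near 0 for Nts. The SD bar of Trh in the ethanol-administered mice reaches below 0, and 1 of these mice had 12.3 CPM.

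**Figure D2:**
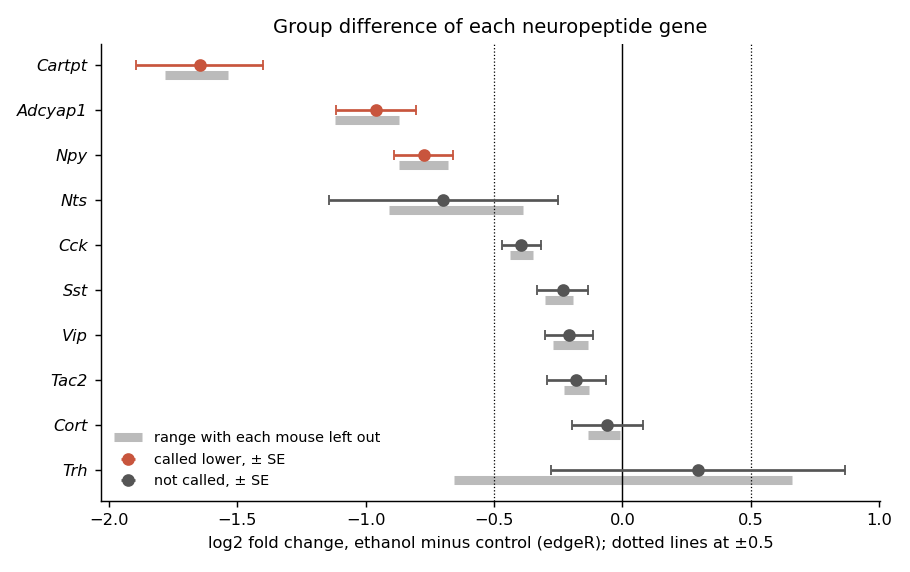
Log2 fold change (x axis, ethanol minus control, ± SE) of each gene from edgeR, with grey bars for the range when each mouse was left out in turn. Cartpt, Adcyap1 and Npy lie below -0.5 with their whole grey bars, while the bar of Trh crosses 0.

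Among the interneuron peptides, Npy, a widespread inhibitory peptide that acts on the Y receptors, fell by 41.5%. Control mice ranged from 68.1 to 104 CPM with a median of 85.4, and the 5 ethanol-administered mice had 37.9, 62.9, 49.6, 52.5 and 52.0 CPM. Every ethanol-administered mouse thus lay below every control mouse. The mean was 87.2 ± 12.6 CPM in the 7 controls and 51.0 ± 8.92 CPM in the 5 others (SD). The log2 fold change was -0.77 (standard error, SE, 0.11, adjusted p = 9.44e-05), and the mean log2 CPM differed by -0.78 (two-sided exact permutation test, p = 0.00126, which is the lowest that 7 against 5 mice can give). Leaving out each mouse in turn gave values from -0.87 to -0.68. Npy is on chromosome 6 from 49799026 to 49806489 of GRCm39, and no exon of another annotated gene overlaps its exons.

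Sst, whose peptide inhibits neurons and marks interneurons that target dendrites, was the gene with the most counts among the interneuron peptides. It ranged from 161 to 247 CPM in the controls (median 225) and had 162, 158, 188, 210 and 192 CPM in the ethanol-administered mice. The groups overlapped, although 4 control mice lay above every ethanol-administered mouse and 1 ethanol-administered mouse lay below every control mouse. The means were 214 ± 31.2 CPM (SD, n = 7) and 182 ± 21.9 CPM (SD, n = 5), with a log2 fold change of -0.23 (95% interval from -0.45 to -0.014, adjusted p = 0.0943). Control mouse 5 was the deepest control library and also the lowest control for Sst. Without it, the adjusted p of Sst was 0.0124 at a log2 fold change of -0.30, still short of the fold threshold. This was the only 1 of 12 fits without 1 mouse where the adjusted p was under 0.05, and the highest was 0.221.

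Cort encodes cortistatin, a relative of somatostatin that binds the same receptors. Its control values ran from 3.32 to 5.94 CPM (median 5.45), and the ethanol-administered mice had 4.17, 4.79, 4.56, 5.46 and 4.83 CPM, all within the control range. With means of 4.95 ± 0.975 CPM (SD, n = 7) and 4.76 ± 0.470 CPM (SD, n = 5), the log2 fold change was -0.059 (95% interval from -0.37 to 0.25, adjusted p = 0.794). A fall of the size seen for Npy lies outside that interval.

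Vip marks interneurons that mainly inhibit other interneurons. Its level was 29.7 ± 3.30 CPM (SD, n = 7) in the controls, from 25.9 to 35.3 with a median of 29.3, and the ethanol-administered mice had 25.3, 29.6, 20.4, 24.2 and 29.1 CPM. The mean of the latter was 25.7 ± 3.77 CPM (SD, n = 5), and 3 of the 5 lay below every control mouse. The log2 fold change of -0.21 did not pass (95% interval from -0.42 to 0.0027, adjusted p = 0.120), and it was -0.14 without ethanol-administered mouse 3 (adjusted p = 0.304). Vip and Adcyap1 encode peptides that share the VPAC receptors, but only Adcyap1 was called; the difference between their changes was not tested.

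Tac2, the precursor of neurokinin B, had 7.18 ± 1.07 CPM (SD, n = 7) in the controls, from 5.75 to 8.59 with a median of 7.11. The ethanol-administered mice had 5.54, 5.60, 7.10, 6.74 and 6.72 CPM, a mean of 6.34 ± 0.717 (SD, n = 5). The groups overlapped, with mice 1 and 2 of the ethanol-administered group below every control and 4 controls above all ethanol-administered mice. The log2 fold change was -0.18 (95% interval from -0.44 to 0.076, adjusted p = 0.271).

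The most counts of all 10 genes were those of Cck, which encodes a peptide of both pyramidal neurons and basket cells. Control mice had between 287 and 419 CPM (median 349), and the ethanol-administered mice had 255, 283, 245, 276 and 280 CPM. Every ethanol-administered mouse lay below every control mouse. From a control mean of 352 ± 41.5 CPM (SD, n = 7) to 268 ± 16.8 CPM (SD, n = 5), the log2 fold change was -0.39 (SE 0.076, adjusted p = 0.00117; exact permutation test, two-sided, p = 0.00253). The adjusted p was under 0.05 in each of 12 fits without 1 mouse, at log2 fold changes between -0.44 and -0.35, so that Cck missed the call by its size alone. Exons of 2 genes annotated on the opposite strand overlap those of Cck on chromosome 9, and since the strand setting of the counting is not described, their reads cannot be told apart.

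Adcyap1 encodes PACAP, a peptide that raises cyclic AMP through its receptor Adcyap1r1, and fell by 48.6%. The controls ranged from 24.5 to 38.3 CPM (median 28.8), whereas the ethanol-administered mice had 13.03, 18.8, 11.1, 11.04 and 21.3 CPM. The groups did not overlap, and mice 2 and 5 were the highest of the ethanol-administered group. Means were 29.3 ± 4.54 CPM (SD, n = 7) and 15.1 ± 4.73 CPM (SD, n = 5), which gave -0.96 on the log2 scale (SE 0.16, adjusted p = 0.000275; exact permutation test, two-sided, p = 0.00126). Across the fits that each lacked 1 mouse it ran from -1.12 to -0.87. The choroid plexus list had its lowest scores among the ethanol-administered mice in the same mice 5 (0.17) and 2 (0.67), while mice 1, 4 and 3 scored 2.69, 3.29 and 4.76; the part of this in the spread of Adcyap1 was not tested. The gene lies on chromosome 17 from 93506397 to 93515189, where 1 gene on the opposite strand overlaps its exons. As for Cck, the reads of the 2 genes cannot be told apart there, since the strand setting is not described.

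Cartpt, the precursor of the CART peptides that are linked to feeding and reward, had the largest fold change of the 10 genes and fell by 68.1%. Control values were 12.9, 13.8, 9.47, 8.002, 7.13, 11.4 and 3.91 CPM for mice 1 to 7, and those of the ethanol-administered mice were 3.25, 2.05, 2.92, 3.52 and 3.40 CPM. All 5 were below the lowest control, control mouse 7, which itself lay far under the other controls. The means were 9.51 ± 3.48 CPM (SD, n = 7) and 3.03 ± 0.590 CPM (SD, n = 5), with a log2 fold change of -1.65 (SE 0.25, adjusted p = 0.000127; exact permutation test, two-sided, p = 0.00379). Leaving out any one mouse gave values between -1.78 and -1.53. Control mouse 7 also had the lowest striatum score of the controls (5.31, next 5.80). With group means removed and predicted genes without a name skipped, the gene most like Cartpt across the 12 mice was the dopamine receptor Drd1, a striatum marker. Its Pearson r was 0.93, the highest of the other genes tested and thus high by selection, and 0.85 without control mouse 7. Cartpt is on chromosome 13 from 100034990 to 100047006, with no overlapping exons.

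Nts encodes neurotensin, a peptide that modulates dopamine signalling. The 7 controls had 6.89, 11.8, 4.29, 5.25, 4.15, 5.71 and 0.192 CPM, and the ethanol-administered mice had 3.94, 4.29, 2.71, 2.43 and 3.47 CPM. Control mouse 7, with 6 counts, stood apart from all other mice, none of which had fewer than 80. The means were 5.47 ± 3.50 CPM (SD, n = 7) and 3.37 ± 0.792 CPM (SD, n = 5). Over all 12 mice the log2 fold change was -0.70 (SE 0.45, 95% interval from -1.69 to 0.30, adjusted p = 0.273). Without control mouse 7 it was -0.91 (SE 0.25, adjusted p = 0.0141), which passed both thresholds, so the call turned on this 1 library. Without control mouse 2, the highest, the value was -0.39 (adjusted p = 0.557), and limma voom gave -0.17 over all mice (adjusted p = 0.882). Lhx8 and Rgs9, both called lower themselves, were among the 3 genes picked as most like Nts within groups, with r of 0.95 and 0.93 (Pearson, 12 mice), but 0.83 and 0.73 without control mouse 7 and 0.071 and -0.24 over the ethanol-administered mice alone. Rgs9 is a regulator of G protein signalling on the striatum list, and Lhx8 is a transcription factor of ventral forebrain neurons.

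Trh encodes thyrotropin-releasing hormone, the tripeptide best known from the hypothalamus. Its control values ranged from 1.604 to 7.996 CPM (median 2.81), and the ethanol-administered mice had 5.22, 0.747, 12.3, 1.91 and 0.517 CPM. Mice 2 and 5 lay below every control and mouse 3 above every control, a 23.9-fold range within 1 group. The means of 3.39 ± 2.20 CPM (SD, n = 7) and 4.15 ± 4.95 CPM (SD, n = 5) gave a log2 fold change of 0.29 (95% interval from -0.98 to 1.57, adjusted p = 0.747), while the difference in mean log2 CPM was -0.41 (exact permutation test, two-sided, p = 0.600). The direction thus depended on the scale, and without ethanol-administered mouse 3 the log2 fold change was -0.66 (adjusted p = 0.398). The same mouse had the highest choroid plexus score (4.76), and mice 2 and 5 had the lowest of their group; whether this bears on Trh was not tested. The hypothalamus list held 4 tested genes of 12, with a summed level between 1.93 and 3.79 CPM over all mice. Its untested peptide genes Hcrt, Pmch, Ghrh, Oxt and Avp had at most 9, 3, 6, 22 and 72 counts in a mouse. Exons of 1 gene on the opposite strand overlap those of Trh, with the same limit as for Cck.

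**Figure D3:**
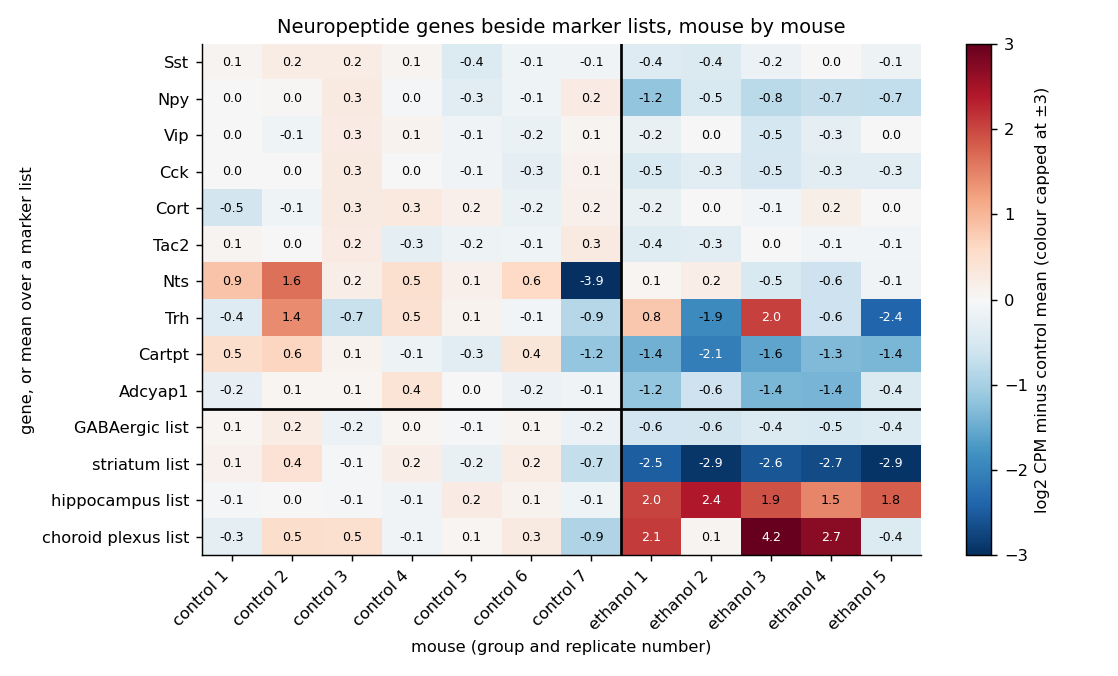
Log2 CPM of each gene, and mean log2 CPM of 4 marker lists, in each mouse (columns) after subtracting the mean of the controls (rows; colour capped at ±3 log2 units). The 5 ethanol-administered mice share low Npy, Cartpt and Adcyap1, low striatum and high hippocampus scores, whereas Trh and the choroid plexus score vary among them, and control mouse 7 stands out for its low Nts.

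Per length, 3 genes stood above the others. Dividing CPM by the union of annotated exons in kb, Cck had 64.4 ± 7.60 CPM per kb (SD, n = 7), Sst 59.0 ± 8.61 and Npy 48.2 ± 6.97 in the controls, and the ranges of neighbours in that order overlapped. The fourth, Cort, had 6.85 ± 1.35 CPM per kb, below Npy in all 7 control mice with no overlap. Adcyap1 (5.73 ± 0.889), Tac2 (4.06 ± 0.607), Nts (4.00 ± 2.56), Cartpt (3.55 ± 1.30), Vip (3.41 ± 0.380) and Trh (1.78 ± 1.15) followed in CPM per kb, each overlapping its neighbour. In the ethanol-administered mice, the order began with Sst (50.2 ± 6.02, n = 5) and Cck (49.04 ± 3.07), which overlapped, and Npy (28.2 ± 4.93) lay below Cck in every mouse without overlap. Adcyap1 was the seventh there and Cartpt the last, with 1.13 ± 0.220 CPM per kb. The order depended on the length used. With the longest transcript, Cck (74.1 ± 8.73 CPM per kb), Sst (59.2 ± 8.65) and Npy (50.9 ± 7.36) kept their places in the controls, while Vip had rank 5 with 8.06 ± 0.897. With the shorter canonical transcript, chosen as an alternative after the values were seen, Npy led the controls with 154 ± 22.3 CPM per kb, Sst followed with 124 ± 18.1 and Vip moved from the ninth to the fourth place with 18.9 ± 2.11.

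**Figure D4:**
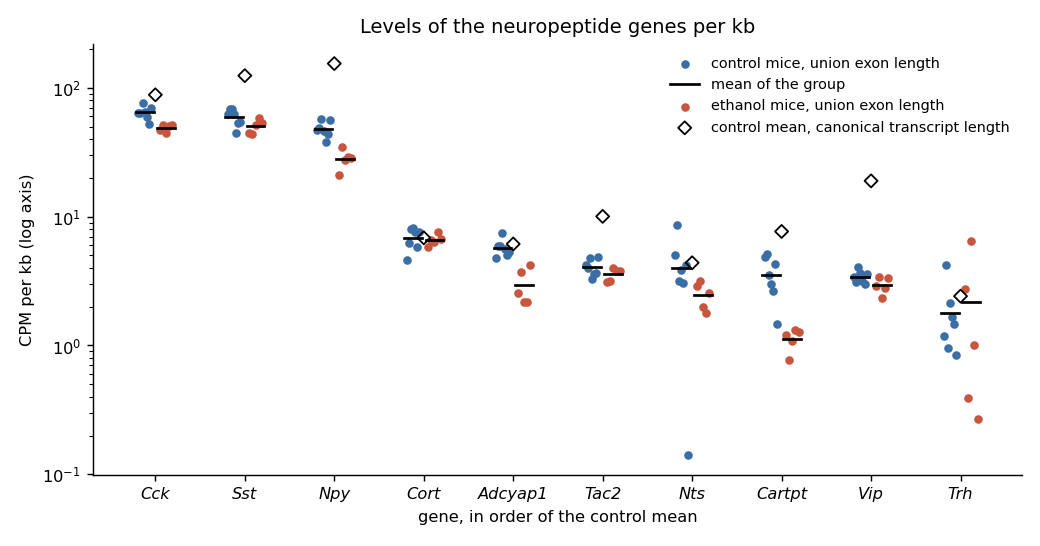
CPM per kb of union exon length (log axis) in each mouse, with black lines for group means and open diamonds for the control mean per kb of the canonical transcript. Cck, Sst and Npy stand above the other 7 genes with either length, while Vip, Cort and Adcyap1 change places most between the lengths.

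The genes whose levels followed each neuropeptide gene most closely within groups are given as a description, by Pearson's r of log2 CPM over the 12 mice after group means were removed. For Sst these were Prkaca, Fscn1 and Cox6a1, with r between 0.958 and 0.961. Npy was followed by Cox6a2, Nalf1 and Tmem218 (0.935 to 0.960), Vip by Cds1, Lamp5 and Stmn1 (0.915 to 0.918) and Cck by Polr2h, Nrgn and Stmn1 (0.890 to 0.908). Cort was followed by F2rl3, Vps16 and Neurog2 (0.855 to 0.924), Tac2 by Tpra1, Lrfn1 and Mirg (0.847 to 0.884), Trh by Six3os1, Ppl and Ttc22 (0.887 to 0.908) and Adcyap1 by Bcat1, Srarp and Dclre1b (0.881 to 0.916). After Drd1, Cartpt was followed by Rnf103 and Wfs1 (0.927 and 0.919), and Lrp2bp led the list of Nts (0.947, or 0.747 without control mouse 7). Between the 10 genes themselves, the closest pairs were Nts with Cartpt (r = 0.81) and Vip with Cck (r = 0.80), and Vip ran opposite to Trh (r = -0.77). Without control mouse 7 the value for Nts with Cartpt was 0.41, and over the ethanol-administered mice alone it was -0.58, while Vip with Cck stayed between 0.74 and 0.83 whichever mouse was left out. All genes come from the same 12 libraries. Predicted genes without a name were skipped, and the 3 genes given for each were the highest of the other genes tested, so the values are high by selection.

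The receptors of these peptides were examined as the other side of the same signalling. Of 20 receptor genes, 18 were tested, 4 were called higher and 2 lower, and their median log2 fold change was 0.12. Npy2r, a presynaptic receptor for neuropeptide Y that is abundant in the hippocampus, rose. Its level was 4.08 ± 1.04 CPM in controls (SD, n = 7) and 15.6 ± 5.81 CPM after ethanol (n = 5), which is 1.94 on the log2 scale (SE 0.22, adjusted p = 6.92e-06). Npy1r, a postsynaptic receptor, did not overlap between the groups (adjusted p = 0.00514) and missed the call by its size alone, at 0.23, and Npy5r had -0.30 (adjusted p = 0.0852). The neurotensin receptor Ntsr1 rose (log2 fold change 0.99), as did the somatostatin receptor Sstr4 (0.71) and the thyrotropin-releasing hormone receptor Trhr (1.33), whereas the other receptor of that hormone, Trhr2, fell (-0.98). The VIP and PACAP receptor Vipr2 was also called lower (-1.30, adjusted p = 0.0358), but lost its call without control mouse 2 or 4 or ethanol-administered mouse 1, 2, 3 or 5, with adjusted p between 0.0638 and 0.0815, and also in limma voom (-0.97, adjusted p = 0.197), with the replicate block (adjusted p = 0.0850) and without the deepest library of each group (adjusted p = 0.0849). The PACAP receptor Adcyap1r1 had an adjusted p of 0.00242 in edgeR at a log2 fold change of 0.33, under the threshold of size. The cholecystokinin receptor Cckbr (-0.22), the neurokinin B receptor Tacr3 (0.25) and the other somatostatin receptors tested were not called. Hippocampus markers were higher in the same mice, as given above, and their part in the receptor values was not tested.

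The genes that cut and store these precursors were examined next. None of 10 processing genes, enzymes and their partners such as the convertase chaperone Scg5, was called by edgeR, DESeq2 or limma voom, at a median log2 fold change of -0.021. In edgeR, 5 had an unadjusted p under 0.05 and 4 an adjusted p under 0.05, all 4 under the fold threshold: the convertase Pcsk2 (-0.27), the glutaminyl cyclase Qpct (-0.41) and the carboxypeptidases Cpd (0.25) and Cpe (0.15). Of 5 granins, acidic proteins of the dense core vesicle, Scg2 (log2 fold change -0.79, SE 0.13, adjusted p = 0.000344) and Chga (-0.53, SE 0.066, adjusted p = 1.85e-05) fell, Vgf missed the call by its size alone (-0.44, adjusted p = 0.00248), and Chgb (0.061) and Scg3 (0.035) were not called. Among 9 peptidases, Mme, which encodes neprilysin, fell (-0.90), and Trhde, the enzyme that degrades thyrotropin-releasing hormone, had no overlap between the groups (adjusted p = 0.000688) and missed the call by its size alone, at 0.49. Of 23 other peptide precursors outside the opioids, 13 were tested, with 3 called lower and 1 higher. The substance P precursor Tac1 fell by 2.89 on the log2 scale, with 64.5 ± 21.5 CPM in controls (SD, n = 7) and 8.72 ± 1.05 CPM after ethanol (n = 5), and the gastrin-releasing peptide gene Grp rose (1.74). Apln and Edn1 were also called lower (-0.565 and -0.68). Tac1 is abundant in striatal projection neurons.

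**Figure D5:**
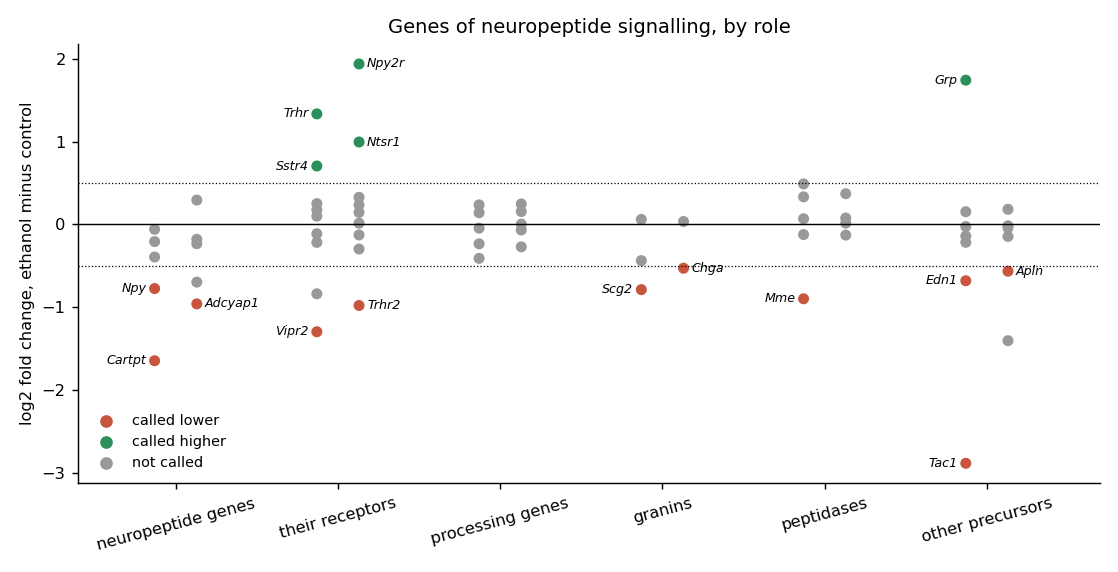
Log2 fold change (y axis, ethanol minus control, edgeR) of each tested gene by its role in neuropeptide signalling, where coloured and named points were called. Lower calls are found in each role except the processing genes, and 4 of the 6 receptors called and the precursor Grp were higher.

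Since most of these peptides are made by GABAergic interneurons, the markers of those cells were compared as well. Of 8 general GABAergic genes, 4 were called lower, among them Dlx5 and Dlx6. Erbb4 of this list was higher with no overlap between the groups, but under the fold threshold (log2 fold change 0.40, edgeR adjusted p = 0.00155). The transporter that loads GABA into vesicles, Slc32a1, fell by 0.77 on the log2 scale and Gad2 by 0.63, while Gad1 stood at -0.31 (adjusted p = 0.00397) and was not called for its size. Striatal projection neurons also use these genes. Of 11 markers of the somatostatin and parvalbumin classes, 3 were called higher, among them Nos1 (0.93), and Tac1 was called lower. Without regard to size, 7 of the 11 had an unadjusted p under 0.05 and a higher level, among them the uncalled Sox6 (0.28, adjusted p = 0.00552), Crhbp (0.33, adjusted p = 0.00976), Nxph1 (0.19, adjusted p = 0.0209) and Elfn1 (0.20, adjusted p = 0.0385), and Pvalb stood at -0.31 (adjusted p = 0.106). The transcription factor Lhx6, which defines these classes, had 23.1 ± 1.98 CPM (SD, n = 7) in controls and 23.6 ± 2.22 CPM (SD, n = 5) after ethanol, a difference of 0.034 on the log2 scale (adjusted p = 0.776). Chodl, a marker of interneurons that hold both Npy and Sst, had 0.712 ± 0.294 CPM (SD, n = 7) and 0.390 ± 0.255 CPM (SD, n = 5) and was not called (adjusted p = 0.148). Of 10 markers of the VIP and Lamp5 classes, 2 were called lower and 1 higher. The lower ones were Sp8 (-1.77, adjusted p = 0.000594) and Lamp5 (-0.51, adjusted p = 0.00608), and the higher one was Reln (0.64, adjusted p = 0.000917). A higher level with an unadjusted p under 0.05 was found for 4, among them the uncalled Adarb2 (0.43, adjusted p = 0.00675) and Htr3a (0.40, adjusted p = 0.0110). Activity-induced genes had 3 higher and 2 lower calls among 15 in edgeR, and 1 higher and 2 lower in DESeq2 and in limma voom, and their mean log2 CPM overlapped between the groups (5.32 to 6.10 in the controls and 5.30 to 6.71 in the ethanol-administered mice). In the remaining lists, 2 of 8 thalamus genes were higher and 1 lower, 1 of 4 hypothalamus genes was lower, none of 5 habenula genes was called by edgeR (1 had an unadjusted p under 0.05; DESeq2 and limma voom also called 0), 4 of 5 choroid plexus genes were higher in edgeR but 1 in limma voom, and 12 glia and vessel genes gave 1 call in each direction.

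When the mean of Gad1, Gad2 and Slc32a1 was included as a covariate, Npy kept its call (log2 fold change -0.98, adjusted p = 0.0290) and Cck gained one (-0.60, adjusted p = 0.0496), whereas Cartpt (-0.17, adjusted p = 0.955) and Adcyap1 (-0.80, adjusted p = 0.340) lost theirs, and Nts was called higher (2.74, adjusted p = 0.0410). With the striatum score as the covariate, 0 of the 10 genes were called by edgeR and 20 of all genes, the values being -1.5999 for Npy (adjusted p = 0.262), -1.46 for Adcyap1 (adjusted p = 0.681) and 2.14 for Cartpt (adjusted p = 0.368). Group accounted for 77.7% and 95.4% of the variance of these covariates, so group and covariate cannot be told apart.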

How the data were processed

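Cortical RNA was extracted, made into libraries and sequenced on a DNBSEQ platform by a service provider. According to the submitters' processing notes and the study's methods, reads were checked with FastQC 0.11.9, aligned with STAR and counted with featureCounts on Gencode Release 28. The table deposited by the authors holds 1 estimated count per gene symbol and mouse, with no normalization. For 61 symbols the values were not whole in some mouse, and all values were rounded to whole numbers. None of the 10 neuropeptide genes was among those symbols (0 of 61).

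Genes were filtered with filterByExpr of edgeR 4.0.16 (R 4.3.3), scaled by TMM and compared by the quasi-likelihood test with Benjamini-Hochberg adjustment over 16059 genes. Standard errors were derived from the log2 fold change and the F statistic. Log2 CPM used a prior count of 2. Exact permutation tests compared mean log2 CPM between the groups over all splits of the mice, two-sided. DESeq2 1.42.0, limma 3.58.1 (voom), other scalings, filters and fold thresholds, a replicate block, 2 marker covariates and leaving out each mouse were alternatives. The scripts were tested on simulated data. Calls used the fold threshold of the study with adjusted p-values; its methods name p without saying whether it was adjusted, and a figure legend names the adjusted p. DESeq2 was the tool named by the authors, and edgeR was the main test here.

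The 10 genes, the other lists and the tests were chosen with earlier results of these data known. Genes named outside the 10 were the 3 most like each of them, where predicted genes without a name were skipped. Also named were called receptors, Gad1, Gad2, Slc32a1 and at most 4 called genes with the smallest p from each other list. Genes named as not called were chosen after their values were seen. Lengths and positions were taken from Gencode release 39 on GRCm39, and promoters from RefSeq. Pairs of mice within a group differed by more than sampling noise (chi-square divided by its degrees of freedom at least 7.77), so no library was counted as a copy. Each library was taken as 1 mouse, and p-values measure the spread between these libraries.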

Additional observations from a re-analysis of the deposited data

Results flagged for a closer look

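In 62 groups of values checked for a mouse far from the others, 4 stood out, where chance gives about 3.1. The values checked in each group were those of the 10 neuropeptide genes, 5 marker scores and the total count. Npy2r, Ntsr1, Trhr2, Sstr4, Trhr, Vipr2, Chga, Scg2, Mme, Tac1, Grp, Gad1, Gad2, Slc32a1 and Nos1 were also checked, and no other gene was. Nts had a log2 CPM of -1.99 in control mouse 7, against 2.07 in the next lowest control. Vipr2 had a log2 CPM of 0.57 in ethanol-administered mouse 4, against 0.0021 in the next highest mouse of that group. Total counts were highest in control mouse 5 (40690223, next 32356913) and in ethanol-administered mouse 1 (42183029, next 33313165). With both of these deepest libraries left out, 3 of the 10 neuropeptide genes were called lower, as with all mice.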

How the results depend on the processing

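Of the 10 neuropeptide genes, 3 were called lower and 0 higher by DESeq2 and limma voom as well. A log2 fold change above 1 left 1 gene called lower, and the striatum score as a covariate left 0; with the GABAergic covariate 1 gene, Nts, was called higher. Leaving out 1 mouse gave 3 to 4 lower and 0 higher. Shared replicate numbers did not pair the mice (correlations of same-numbered mice between -0.11 and 0.018 over 5 pairs, and 0 of 5 ethanol-administered mice correlated best with their own number). The replicate block called 4 genes lower, adding Nts (-0.87, edgeR adjusted p = 0.00430), and turned Trh to -0.46. Trh was also -0.37 with limma voom and -0.66 without ethanol-administered mouse 3. Changes of sign were followed only for the genes checked above for a far mouse. With the striatum covariate the log2 fold change changed sign for Sst (0.40), Nts (6.59), Cartpt (2.14), Sstr4 (-0.14), Vipr2 (0.58), Scg2 (0.35), Mme (1.18), Tac1 (0.47), Gad1 (0.29), Gad2 (0.90) and Slc32a1 (0.63). With the GABAergic covariate it did so for Nts (2.74) and for Gad1 (0.066) and Gad2 (0.093), which are part of that covariate, so that their values there carry no information. Cort was 0.017 without the deepest library of each group. Differences in mean log2 CPM changed sign for Cort without control mouse 3 (0.0083) or 4 (0.012) or ethanol-administered mouse 1 (0.011), for Nts without control mouse 2 (0.089) and for Trh without ethanol-administered mouse 5 (0.084). Without 1 mouse, Trh ranged from -0.66 to 0.66 in edgeR, and the differences in mean log2 CPM ranged from -0.13 for Cort, -0.84 for Nts and -1.02 for Trh up to the positive values just given. The cause of these changes was not tested. Requiring 10 counts in every mouse gave no value for Nts. Over all genes, 1331 were called, 524 with a log2 fold change above 1, 3810 without a minimum, 20 with the striatum and 262 with the GABAergic covariate. DESeq2 called 1390, limma voom 1319, the replicate block 1324 and the fit without the deepest library of each group 1438, in either direction. In their lowest mouse Trh had 17 counts and Nts 6.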
